A study of Mus musculus with 7 samples.

Results

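The sweat gland genes described here are 9 genes taken by symbol from the sweat gland list of this series, out of 22180 genes measured. They are Aqp5, Scgb1a1, Foxa1, Foxi1, Kcnn4, Ano1, Slc12a2, Cftr and Chrm3. Each was read from the only probe set of the array that the platform annotation ties to that symbol alone, and each symbol matched a RefSeq gene through its Entrez identifier. The study compared uninjured digits of C57Bl/6 mice (n = 4) with blastemas of the same strain, the cell masses that rebuild an amputated digit tip, harvested 2 weeks after amputation (n = 3). No transgene, drug or allele is named for either group, and the labels give no age or sex. They do not say which stretch of the digit was taken, nor whether the skin of the pad, where the sweat glands lie, was included, nor whether several animals were pooled. The comparison asks how the transcripts of a regenerating digit differ from those of an intact one.

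Mice have eccrine sweat glands almost only in the pads of their paws. A gland is a coiled tube of secretory cells wrapped in contractile myoepithelial cells, and a duct that takes salt back on the way to the skin surface. Nerve fibres release acetylcholine onto muscarinic receptors, calcium rises in the secretory cell, chloride and potassium channels open, and water follows through aquaporin channels. None of the 9 genes is used by sweat glands alone: Slc12a2, Ano1, Kcnn4 and Chrm3 are also active in muscle, nerve, blood or other epithelia.

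Of the 9 sweat gland genes 2 passed the test, Aqp5 and Scgb1a1, and both were lower in the blastema. The water channel gene Aqp5 fell 2.15-fold. The secretoglobin gene Scgb1a1 fell to a level not above background in the blastema and passed narrowly: it lost its call in each of the 7 omissions of 1 array, with the replicate number as a block and with array weights, which left 1 of the 9. Passing the test means a Benjamini-Hochberg adjusted p under 0.05 over all 22180 genes in limma, a linear model that shares its estimate of variance across genes. By that rule 2 of the 9 were lower, against 4.66% of all genes, and 0 of the 9 were higher, against 4.98% of all genes. At an unadjusted p under 0.05, which 24.9% of all genes reached, the counts were 2 lower and 1 higher. The other 7 genes had adjusted p-values of 0.15 to 0.793. The median log2 fold change (blastema minus uninjured) of the 9 genes was -0.15, and that of all genes was -0.0054. In bulk tissue, fewer gland cells, less RNA per gland cell, a difference in the tissue taken and RNA from other cells cannot be told apart.

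Levels are log2 values, and the 7 arrays, which have no read depth, limit the precision. The array medians lay between 5.53 and 5.58. As a stand-in for detection calls, a background proxy was set at 5.52, the level that 95% of 1105 olfactory receptor genes stayed under on average. It was exceeded by both group means in 5 of the 9 genes, by the uninjured mean alone in Scgb1a1, and by neither mean in Foxa1, Cftr and Chrm3. Along the second principal component, with 14.3% of the variance, uninjured array 1 (24.8) and blastema array 1 (15.8) stood apart from the other arrays (-13.6 to -3.18). In 52.9% of all genes 2 or more arrays held exactly the same value, and this was so in Foxa1, Kcnn4, Ano1, Slc12a2 and Cftr. Nothing in the labels says more than that the samples of a group are separate biological replicates.

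**Figure D1:**
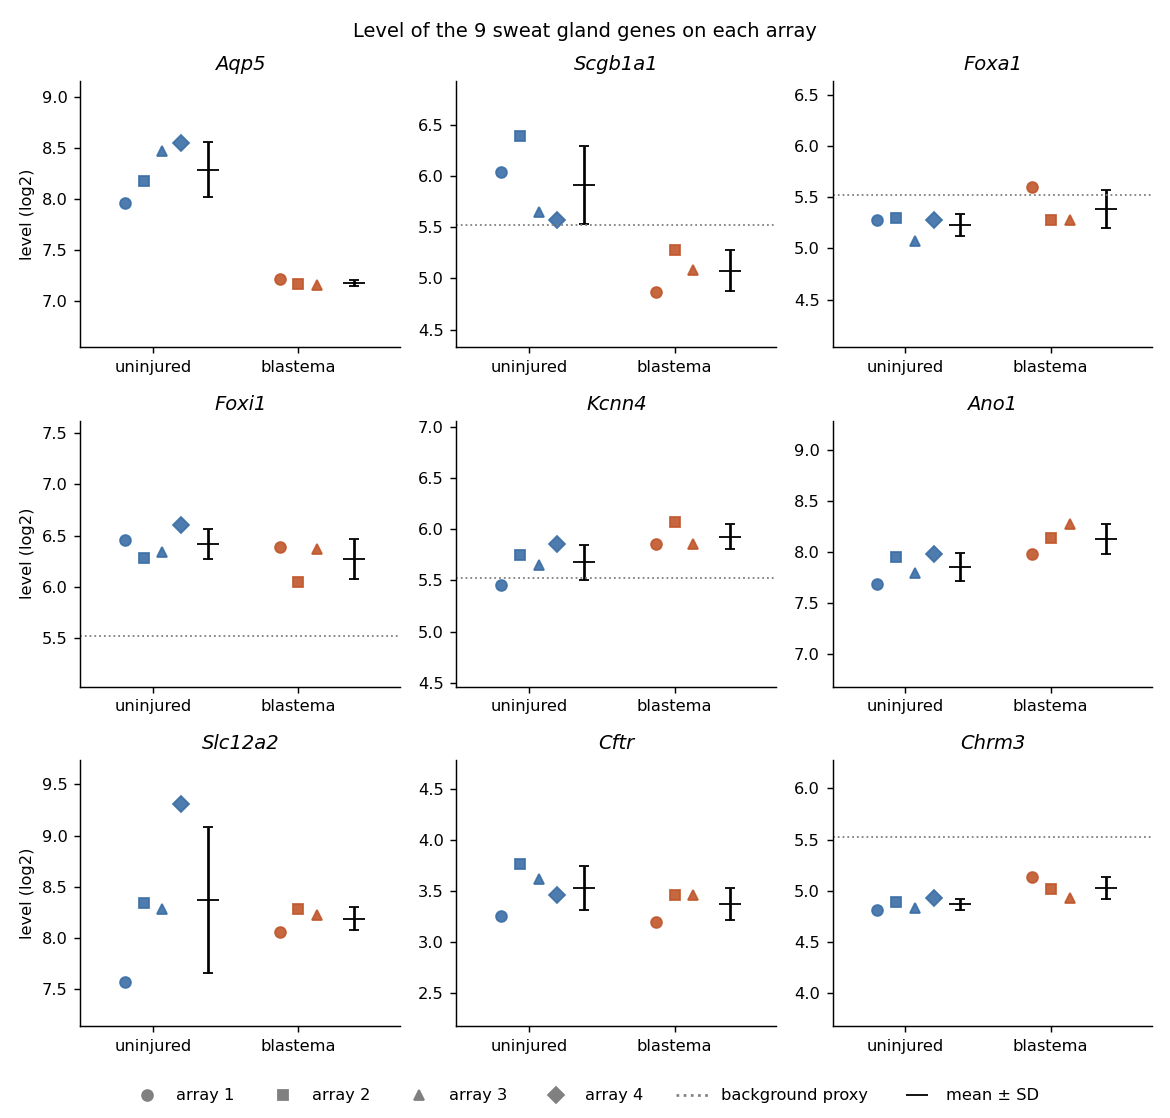
Level of each of the 9 genes (log2, vertical axis, every panel spanning the same number of log2 units) on the 4 uninjured arrays (blue) and the 3 blastema arrays (orange), with marker shape giving the array number, black bars the mean ± SD and the dotted line the background proxy of 5.52. The blastema points lie below every uninjured point for Aqp5 and Scgb1a1 and overlap the uninjured points for the other genes.

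Aqp5 encodes aquaporin 5, the water channel of the apical membrane in sweat, salivary and lacrimal gland cells. Its level was 7.96, 8.17, 8.47 and 8.55 on uninjured arrays 1 to 4, and 7.22, 7.17 and 7.16 on blastema arrays 1 to 3. All blastema arrays lay below all uninjured arrays with a gap of 0.75, and the blastema arrays lay within 0.06 of each other while the uninjured arrays spanned 0.58. In 2 of the 9 genes, both lower, the groups did not overlap. Over all genes this was so in 21.0%, with 10.6% lower and 10.4% higher in the blastema. The means were 8.29 ± 0.27 (SD, n = 4) and 7.18 ± 0.03 (SD, n = 3). The log2 fold change was -1.11 ± 0.14 (SE), with a 95% interval of -1.44 to -0.77 and a limma adjusted p of 0.00534. It passed in each omission of 1 array (adjusted p = 0.00531 to 0.0336) and without both arrays numbered 1 (adjusted p = 0.0143).

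The promoter window of Aqp5 is shown because this gene had the largest change of the 9. It comes from the RefSeq promoter table of build GRCm38.p6 and runs from 250 bases before to 50 bases after the annotated start, at chr15:99590778-99591077 on the + strand. Of the 9 genes 7 had such a window. The Aqp5 window holds 46 CpG pairs, against a median of 7 in 27025 windows of the same length, 1 per gene. This is percentile 98.5 of those windows, with tied windows split evenly above and below. The Aqp5 window is 79.7% G and C against a median of 52.7%. Capitals mark the forkhead motifs TGTTTAC and TGTTTGC, searched on both strands, and the Aqp5 window has no capitals.
Aqp5: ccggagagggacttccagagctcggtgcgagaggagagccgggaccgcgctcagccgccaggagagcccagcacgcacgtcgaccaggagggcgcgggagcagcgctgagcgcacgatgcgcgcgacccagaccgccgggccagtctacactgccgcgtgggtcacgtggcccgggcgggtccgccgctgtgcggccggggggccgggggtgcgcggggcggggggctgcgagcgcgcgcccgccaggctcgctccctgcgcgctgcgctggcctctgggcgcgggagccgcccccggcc

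Scgb1a1 encodes a small secreted protein of the secretoglobin family, best known from the club cells of the airway. Its level was 6.04, 6.39, 5.65 and 5.57 on uninjured arrays 1 to 4, and 4.87, 5.28 and 5.09 on blastema arrays 1 to 3. The groups did not overlap, with a gap of 0.29, and all 3 blastema arrays lay under the background proxy while all 4 uninjured arrays lay above it. The means were 5.91 ± 0.38 (SD, n = 4) and 5.08 ± 0.20 (SD, n = 3). The difference was -0.84 ± 0.21 (SE), measured against a blastema mean under the background proxy, with a 95% interval of -1.32 to -0.35 and a limma adjusted p of 0.0486. Dropping uninjured array 1, 2, 3 or 4 gave adjusted p-values of 0.109, 0.0728, 0.0754 and 0.0551, and dropping blastema array 1, 2 or 3 gave 0.128, 0.0986 and 0.152, so the call was lost each time. Without both arrays numbered 1 it was 0.229. On the uninjured arrays the order of Scgb1a1 was not that of Aqp5: Scgb1a1 was highest on array 2 and lowest on array 4, where Aqp5 was highest.

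**Figure D2:**
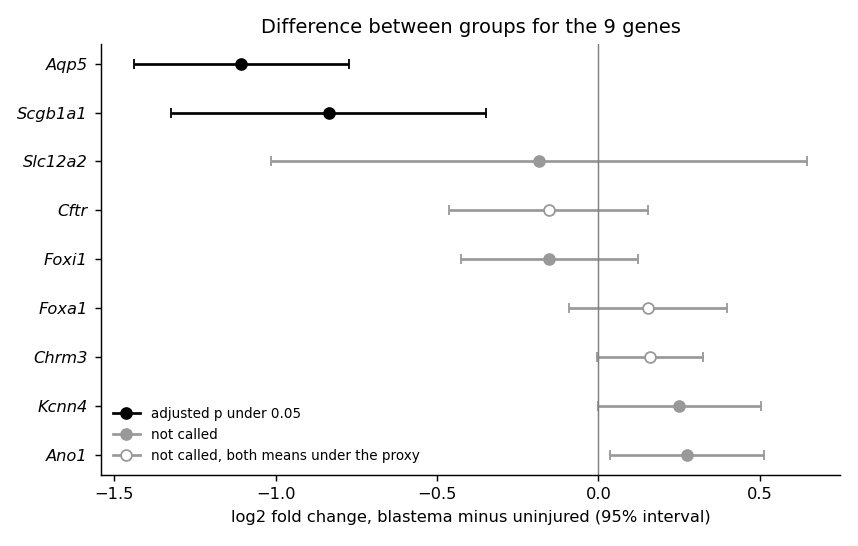
Log2 fold change (horizontal axis, blastema minus uninjured) of the 9 genes with its 95% interval from limma, black where the adjusted p was under 0.05, grey where it was not, and open where both group means lay under the background proxy. Aqp5 (-1.11) and Scgb1a1 (-0.84) lie left of 0 with their whole intervals, and the widest interval is that of Slc12a2 (-1.02 to 0.65).

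Of the ion transport genes of the secretory cell, none passed the test in limma, and 1 of the 4 (Ano1) had an unadjusted p under 0.05. Slc12a2 encodes the sodium, potassium and chloride cotransporter that loads the secretory cell with chloride. Its level was 7.57, 8.34, 8.28 and 9.30 on uninjured arrays 1 to 4 and 8.06, 8.28 and 8.22 on blastema arrays 1 to 3. The blastema arrays lay inside the range of the uninjured arrays, which spanned 1.74, with array 1 low and array 4 high. The difference was -0.18 (95% interval -1.02 to 0.65, adjusted p = 0.793), and without uninjured array 4 its sign turned (0.13, adjusted p = 0.765).

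Ano1 encodes a calcium-activated chloride channel. Its level was 7.69, 7.95, 7.79 and 7.98 on uninjured arrays 1 to 4 and 7.98, 8.13 and 8.28 on blastema arrays 1 to 3. The groups touched, since uninjured array 4 and blastema array 1 held the same value. The difference was 0.27 (95% interval 0.04 to 0.51, unadjusted p = 0.0298), and the adjusted p over all genes was 0.15.

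Kcnn4 encodes a calcium-activated potassium channel of intermediate conductance, which is also active in red cells and lymphocytes. Its level was 5.46, 5.75, 5.65 and 5.85 on uninjured arrays 1 to 4 and 5.85, 6.07 and 5.86 on blastema arrays 1 to 3. Here too uninjured array 4 and blastema array 1 held the same value, and the other blastema arrays lay above all uninjured arrays. The difference was 0.25 ± 0.11 (SE), with an adjusted p of 0.204 and an interval whose lower end (-0.0018) lay just below 0 and whose upper end was 0.50.

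Cftr encodes the chloride channel of the duct, where salt is taken back, and of the ionocytes of some epithelia. Its level was 3.26, 3.76, 3.62 and 3.46 on uninjured arrays 1 to 4 and 3.20, 3.46 and 3.46 on blastema arrays 1 to 3. All 7 values lay well under the background proxy, so low signal limits this comparison. The difference was -0.15 (95% interval -0.46 to 0.16, adjusted p = 0.523).

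Chrm3 encodes the muscarinic acetylcholine receptor through which nerves start sweating. Its level was 4.82, 4.89, 4.83 and 4.93 on uninjured arrays 1 to 4 and 5.14, 5.02 and 4.93 on blastema arrays 1 to 3. Blastema arrays 1 and 2 lay above all uninjured arrays and blastema array 3 lay among them, and all values were under the background proxy. The difference was 0.16 ± 0.07 (SE, adjusted p = 0.212).

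The forkhead transcription factor genes did not pass the test either. Foxa1, a pioneer factor gene active in sweat gland secretory cells, lay at 5.28, 5.30, 5.07 and 5.28 on uninjured arrays 1 to 4 and at 5.60, 5.28 and 5.28 on blastema arrays 1 to 3. Blastema array 1 alone was above the background proxy and above all other arrays, and 3 arrays held the same value. The difference was 0.15 (95% interval -0.09 to 0.40, adjusted p = 0.415). Foxi1, known from ionocytes and other acid-secreting cells, lay at 6.46, 6.28, 6.34 and 6.61 on uninjured arrays 1 to 4 and at 6.39, 6.04 and 6.37 on blastema arrays 1 to 3. Blastema array 2 was the lowest of the 7 and the groups overlapped. The difference was -0.15 (95% interval -0.43 to 0.12, adjusted p = 0.473). Foxi1 (adjusted p = 0.026) and Cftr (adjusted p = 0.00825) passed downward when arrays were scaled to reference genes. That scaling moved every gene alike, and the median of all genes lay at -0.37. Relative to this median Foxi1 and Cftr stood at -0.15, Foxa1 at 0.16, Chrm3 at 0.16, Kcnn4 at 0.26 and Ano1 at 0.28, while on the scaled values themselves Foxa1, Chrm3, Kcnn4 and Ano1 lay below 0.

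The Foxa1 window is shown because, of the 7 windows, it is the only one with a match to either forkhead motif. The match is TGTTTAC on the strand opposite the gene, from base -141 to base -135 counted from the start, and 8.34% of all windows hold either motif. The window lies at chr12:57546062-57546361 on the - strand of GRCm38.p6 in the same RefSeq table, written in the direction of the gene, with the match in capitals. It holds 26 CpG pairs. A match is a run of letters and shows no binding.
Foxa1: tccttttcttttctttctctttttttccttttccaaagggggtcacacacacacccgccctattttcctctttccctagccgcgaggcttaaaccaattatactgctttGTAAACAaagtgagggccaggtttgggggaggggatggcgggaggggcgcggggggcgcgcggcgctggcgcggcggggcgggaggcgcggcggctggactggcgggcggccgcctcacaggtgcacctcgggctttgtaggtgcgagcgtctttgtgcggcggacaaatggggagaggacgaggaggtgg
Among the other windows Cftr had 31 CpG pairs, Ano1 had 18, Chrm3 had 11, and Foxi1 and Kcnn4 had 6 each. CpG content therefore varied widely among the sweat gland genes.

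In the gene families of the channels, transporters, receptor and forkhead factors no other member passed the test in the main fit. Of the listed secretoglobins, relatives of Scgb1a1, Scgb2b27 passed (-1.46, adjusted p = 0.0066). Scgb3a2 (-0.83, 0.0842), Scgb1b27 (-0.16, 0.658), Scgb3a1 (-0.025, 0.934) and Scgb1c1 (0.032, 0.870) did not, all but Scgb3a2 named after their values were seen. Among 11 other aquaporin genes 0 rose and 0 fell by limma (2 higher and 0 lower at an unadjusted p under 0.05), and the vessel water channel gene Aqp1 differed by 0.70 ± 0.21 (SE, adjusted p = 0.0906). Aqp3, the glycerol and water channel of keratinocytes, differed by 0.11 (adjusted p = 0.452) and Aqp6 by 0.28 (adjusted p = 0.107). Of 9 other anoctamin genes 0 passed (1 higher and 2 lower unadjusted), with Ano9 at -0.55 (adjusted p = 0.0644), Ano6, a lipid scramblase gene, at 0.39 (0.116) and Ano8 at -0.32 (0.169). The 3 other Kcnn genes gave 0 calls and 0 unadjusted ones, at -0.11 for Kcnn1, -0.0099 for Kcnn2 and 0.017 for Kcnn3. The 7 other Slc12 genes gave 0 calls (1 higher unadjusted), with Slc12a4 at 0.28, Slc12a7 at -0.11 and Slc12a8 at 0.073. The 4 other muscarinic receptor genes gave 0 calls and 0 unadjusted ones, with Chrm2 at -0.11, Chrm5 at 0.080 and Chrm1 at -0.047. The 6 other Foxa, Foxi and Foxc genes gave 0 calls (1 lower unadjusted), with Foxa3 at -0.16, Foxc2 at -0.079 and Foxc1 at 0.092. Without blastema array 1, Aqp1 (adjusted p = 0.0427), Ano6 (0.0406) and Slc12a4 (0.0439) passed.

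Beyond the 9, 144 other genes were read from lists drawn up for the parts of the sweat gland, of 154 listed. Other cells use genes of these lists too, both among those that rose and among those that fell. Examples are Atp6v0d2 (osteoclasts), Lyz2 (macrophages) and Krt6a (wounded epidermis), which rose, and Trpv4 (skin), which fell. From which cells the rises and falls came was not tested. By limma 8 of the 144 rose and 12 fell, 13.9% against 9.64% of all genes. The median log2 fold change of the 144 was -0.0079. When uninjured arrays 2, 3 and 4 were dropped in turn, 6, 6 and 5 fell, and when blastema arrays 2 and 3 were, 6 and 5 fell. Calls were lost over all genes as well: 1034 fell in the main fit, and 505, 520, 586, 429 and 365 in these omissions. Those of the 144 that rose came to 5 when array 3 of either group was dropped. Over all genes 1105 rose in the main fit, 625 without uninjured array 3 and 480 without blastema array 3.

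**Figure D3:**
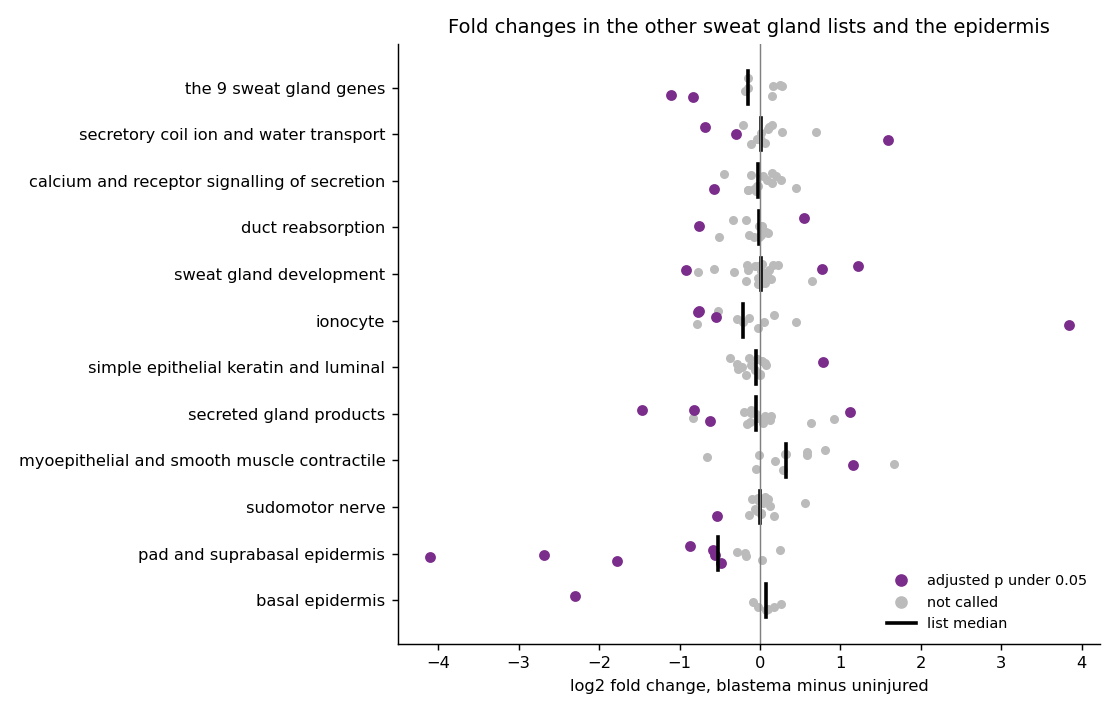
Log2 fold change (horizontal axis) of the measured genes of each list, with 1 point a gene, purple where the limma adjusted p was under 0.05, and the list median as a black bar; the 9 sweat gland genes stand in the top row and are left out of the others. Most medians lie near 0, and the pad and suprabasal epidermis list (-0.52) lies furthest left.

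For comparison with the counts of each list below, 4.98% of all genes rose and 4.66% fell. Of 15 other ion and water transport genes 1 rose and 2 fell. Car2, a carbonic anhydrase gene, fell by 0.68 ± 0.10 on the log2 scale (SE, adjusted p = 0.00826), and Trpv4, a calcium channel gene of skin, fell by 0.29 ± 0.07 (adjusted p = 0.0462). Kcnma1, the large-conductance potassium channel gene, rose by 1.60 ± 0.25 (adjusted p = 0.0093). Of 16 other genes of receptor and calcium signalling 1 fell and 0 rose (3 higher unadjusted). It was Itpr2 (-0.57 ± 0.13, adjusted p = 0.0391), which encodes a calcium release channel of the endoplasmic reticulum that sweat secretion needs in mice and people. Gna11 (0.26, adjusted p = 0.137) and Plcb1 (0.45, adjusted p = 0.172), both between receptor and calcium release, did not pass. Trpv4 lost its call in each omission of 1 array (adjusted p = 0.0576 to 0.136), Itpr2 in each but that of uninjured array 1 (0.0733 to 0.119), and Kcnma1 without blastema array 2 or 3 (0.0517 and 0.0508).

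In the duct list of 14 genes 1 rose and 1 fell, 14.3% of the list against 9.64% of all genes. Prss8, a protease gene that acts on the sodium channel of the duct, fell by 0.76 ± 0.11 (adjusted p = 0.00832), Krt6a rose by 0.55 ± 0.06 (adjusted p = 0.00308), and the sodium channel subunit gene Scnn1b differed by -0.51 (adjusted p = 0.108). Krt6a is also a keratin of wounded and nail epidermis. Of 24 other developmental genes 2 rose and 1 fell (4 higher and 4 lower unadjusted): Smo, which transmits hedgehog signals, by 1.22 ± 0.08 (adjusted p = 0.00126), Sox9 by 0.77 ± 0.17 (adjusted p = 0.0298) and Sostdc1, a BMP and Wnt inhibitor gene, by -0.91 ± 0.18 (adjusted p = 0.0225). Genes of the ectodysplasin pathway and the pad, named after their values were seen, did not pass. Edaradd, the adaptor of that pathway, had groups that did not overlap and stood at -0.77 ± 0.21 (adjusted p = 0.0605), and it passed without uninjured array 1 (0.0282). The others were the signal gene Eda (0.14, 95% interval -0.23 to 0.51), its receptor gene Edar (-0.022, -0.30 to 0.25) and the pad transcription factor gene En1 (-0.027, -0.64 to 0.59). Sostdc1 lost its call on dropping array 2, 3 or 4 of the uninjured or 2 or 3 of the blastema group (adjusted p = 0.0676 to 0.0978), and Sox9 on dropping array 2, 3 or 4 of the uninjured or 1 or 3 of the blastema group (0.0684 to 0.115). The sign of En1 turned without uninjured array 1 (0.12) or blastema array 3 (0.25), and that of Edar without blastema array 2 (0.13).

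Of 13 other ionocyte genes, among them proton pump subunits, 3 fell and 1 rose. Atp6v1c2 (-0.77 ± 0.12, adjusted p = 0.00852), Atp6v0a4 (-0.75 ± 0.13, adjusted p = 0.0155) and the anion exchanger gene Slc4a9 (-0.54 ± 0.12, adjusted p = 0.0339), named after its value was seen, fell. The gene that rose, Atp6v0d2 (3.84 ± 0.41, adjusted p = 0.00324), encodes a pump subunit of osteoclasts and had an uninjured mean of 4.23, under the background proxy, and 8 of 10 macrophage and osteoclast markers rose with it, among them Ctsk (3.32 ± 0.24) and Ocstamp (0.78 ± 0.10, with its uninjured mean of 5.19 under the proxy). Their summed level, as log2, was 10.15 to 10.35 on the uninjured and 11.23 to 11.88 on the blastema arrays, and their part in the rise of Atp6v0d2 was not tested. Atp6v0a4 lost its call on dropping array 2 or 4 of the uninjured or 2 or 3 of the blastema group (adjusted p = 0.05 to 0.0705), and Slc4a9 in each omission but that of blastema array 1 (0.0521 to 0.104).

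Of 19 other secreted gland products 3 fell and 1 rose. Scgb2b27, another secretoglobin gene, averaged 7.10 ± 0.20 (SD, n = 4) in uninjured digits and 5.64 ± 0.42 (SD, n = 3) in blastemas, and the difference was -1.46 ± 0.20 (SE, adjusted p = 0.0066). Cst3, a secreted protease inhibitor gene (-0.81 ± 0.08, adjusted p = 0.0028), and the beta-defensin gene Defb1 (-0.62 ± 0.13, adjusted p = 0.0254) fell as well. The macrophage lysozyme gene Lyz2, named after its value was seen, rose by 1.12 ± 0.24 (adjusted p = 0.0287). Secretoglobin genes have near-identical copies in mice, so the value of Scgb2b27 is uncertain where probes match several of them. Defb1 lost its call on dropping array 1, 2, 3 or 4 of the uninjured or 3 of the blastema group (adjusted p = 0.0604 to 0.0811), and Lyz2 on dropping array 3 or 4 of the uninjured or 2 or 3 of the blastema group (0.0593 to 0.119).

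Of the markers of the cells that build the gland, 6.25% of the simple epithelium list and 8.33% of the contractile list were called. Over all genes 9.64% were called, and 24.9% had an unadjusted p under 0.05 in either direction. Of 16 genes of simple, gland-like epithelium 1 rose and 0 fell (3 lower unadjusted). It was Muc1, a membrane mucin gene whose uninjured mean of 5.22 lay under the background proxy (0.78 ± 0.15, adjusted p = 0.0192). Ehf (-0.37, adjusted p = 0.0644) and the cadherin gene Cdh1 (-0.27, adjusted p = 0.0678) did not pass, nor did the gland keratins Krt8 (-0.22, adjusted p = 0.370) and Krt18 (-0.14, adjusted p = 0.758), both named after their values were seen. Of 12 contractile genes of myoepithelium and smooth muscle 1 rose and 0 fell (6 higher unadjusted): Cnn2 (1.16 ± 0.14, adjusted p = 0.00435). Acta2, the smooth muscle actin gene, differed by 1.66 ± 0.44 (adjusted p = 0.0591) and Actg2 by 0.81 (adjusted p = 0.0791). Muc1 lost its call without uninjured array 2 or 3 (adjusted p = 0.0629 and 0.0567), Acta2 gained one without uninjured array 4 (0.0429), and Actg2 and Ehf without blastema array 1 (0.0149 and 0.0252). Of 8 smooth muscle and pericyte markers, which share Acta2, Myh11 and Des with that list, 4 rose, among them Pdgfrb (1.75 ± 0.20) and Mcam (1.32 ± 0.18). Their summed level was 10.56 to 11.66 on the uninjured and 11.67 to 12.40 on the blastema arrays, and their part in the contractile list was not tested.

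The list of nerve genes, 16 in all, had 1 that fell and 0 that rose (1 higher unadjusted), and 4 of the 16 were above the background proxy. Tubb3, the neuronal tubulin gene, fell by 0.54 ± 0.10 (adjusted p = 0.0214), while Stmn2 (0.55, adjusted p = 0.132) and the monoamine transporter gene Slc18a2 (0.17, adjusted p = 0.386) did not pass. Tubb3 lost its call on dropping array 3 or 4 of the uninjured or 2 or 3 of the blastema group (adjusted p = 0.0521 to 0.0912), and Stmn2 gained one without blastema array 1 (0.045). The cell bodies of these nerve fibres lie outside the digit.

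Of 12 pad and suprabasal epidermis markers 7 fell and 0 rose, with a median of -0.52 and a summed level of 15.15 to 15.47 on the uninjured and 14.82 to 14.94 on the blastema arrays. Krt9, the keratin of pad epidermis, fell by 4.11 ± 0.52 (SE, adjusted p = 0.00512), and filaggrin, Flg, by 0.48 ± 0.06 (adjusted p = 0.00481). Krt9 lay at 9.10, 11.05, 11.21 and 11.14 on uninjured arrays 1 to 4 and at 6.62, 6.83 and 6.11 on blastema arrays 1 to 3. Uninjured array 1 was thus the lowest uninjured array for both Krt9 and Aqp5. The same array was also the lowest for Slc12a2, Ano1, Kcnn4, Cftr and Chrm3, though not for Scgb1a1, Foxa1 and Foxi1. The match is therefore not particular to Krt9 and Aqp5. Of 7 basal epidermis markers 1 fell and 0 rose, Krt15 (-2.30 ± 0.48, adjusted p = 0.0265), and Itga6 differed by 0.27 (adjusted p = 0.175), with a list median of 0.07 and a summed level of 13.07 to 13.14 on the uninjured and 13.08 to 13.22 on the blastema arrays. Krt15 passed only where uninjured array 1 was the array omitted (adjusted p = 0.0588 to 0.105 otherwise). The part of the epidermis in the fall of Aqp5 was not tested.

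Other cell types gave 0 calls by limma. The 10 sebaceous gland markers (0 higher and 4 lower unadjusted) summed to 9.89 to 10.55 on the uninjured and 9.73 to 10.06 on the blastema arrays, with Mgst1 at -0.52 (adjusted p = 0.0669) and Cidea at -0.44 (adjusted p = 0.0872). The 9 T cell and mast cell markers (1 higher and 1 lower unadjusted) summed to 8.22 to 8.52 and 8.12 to 8.34, with Mcpt4 at -0.70 (adjusted p = 0.0888) and Cd3e at 0.15 (adjusted p = 0.196). Of 11 erythroid markers 4 were measured, 0 of them above the background proxy and 0 with an unadjusted p under 0.05, among them Klf1 (-0.038) and Rhag (0.027), and they summed to 6.90 to 7.07 and 6.87 to 7.12. The 10 airway and lung markers (0 higher and 2 lower unadjusted), 2 of them above the background proxy, summed to 8.64 to 9.08 and 8.30 to 8.59, which did not overlap. Of these, Cyp2f2, a cytochrome gene of airway club cells, stood at -1.41 ± 0.49 (adjusted p = 0.124), and Scgb3a2 at -0.83 ± 0.25 (adjusted p = 0.0842). The part of such cells in the level of Scgb1a1 was not tested. Cyp2f2 gained a call without uninjured array 3 (adjusted p = 0.0439) and Mgst1 without uninjured array 1 (0.0493).

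The genes whose levels ran most like those of Aqp5 over the 7 arrays were Agpat4, Fut2, Sptlc3, Slc22a4 and Stard4. Likeness was the root mean square difference after each gene was centred on its own mean, over 12212 other genes above the background proxy (predicted genes, clones and small RNAs left out), and was 0.113, 0.114, 0.121, 0.122 and 0.141 on the log2 scale. Agpat4 and Sptlc3 encode enzymes of phospholipid and sphingolipid synthesis, Stard4 a sterol carrier, Fut2 a fucosyltransferase and Slc22a4 an organic cation transporter. Each was lower on all blastema arrays than on all uninjured arrays, with log2 fold changes of -1.07, -1.08, -1.004, -1.03 and -1.13, values that the choice by likeness fixes in part. Of the other sweat gland genes Scgb1a1 was nearest to Aqp5, at 0.44, which placed it 1306 in order among these 12212 genes. Foxi1 followed at 0.51, in place 3007, and Cftr, with all its values under the background proxy, lay at 0.52. Neither was close to Aqp5, as the 5 nearest genes lay at 0.113 to 0.141. Ano1 lay furthest away at 0.71.

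**Figure D4:**
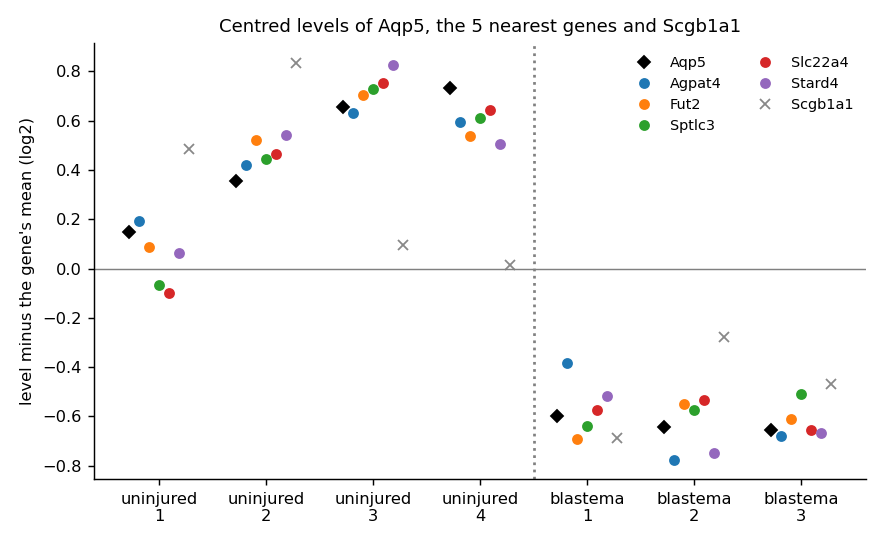
Level minus the mean of the gene over the 7 arrays (vertical axis, log2) of Aqp5 (black diamonds), the 5 genes nearest to it (coloured circles) and Scgb1a1 (grey crosses) on each array. The 5 genes lie close to Aqp5 on every array, while Scgb1a1 is highest on uninjured array 2 and lies lowest of its group on uninjured array 4.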

How the data were processed

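The 7 arrays measured RNA of uninjured digits or blastemas, prepared with a whole-transcript kit from 400 ng of total RNA, per the labels' protocols. The authors deposited log2 levels, computed by RMA with the R package oligo according to the submitters' processing notes. For versions, settings and genome build, the sources used here give nothing. Of 41345 probe sets, 23521 have 1 gene symbol, 1814 several and 16010 none. Genes came from probe sets with 1 symbol, the brightest over all arrays.

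The test was limma 3.58.1 (R 4.3.3) with default settings, blastema against uninjured, with no covariate. Each p-value was two-sided and adjusted over all genes. The procedure was tested on simulated data. The 9 genes and all lists were chosen with earlier results of these data known. All 9 are named. From each list the 3 other genes with the smallest p, or 2 for cell type markers, are named, with the 5 genes most like Aqp5, and genes outside this rule are marked as such. Of the listed genes, those with no probe set of their own symbol were not analysed here. Leaving out both arrays numbered 1 was added after the data were seen. Figures used matplotlib 3.10.9.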

Additional observations from a re-analysis of the deposited data

Results flagged for a closer look

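In the 4 uninjured arrays, 7 of 98 values examined (levels of named genes and list means) had 1 array further from the rest than Dixon's critical value for 4 samples allows, and about 1 in 20 would by chance. Foxa1 was low on array 3 (5.07, against 5.28 to 5.30). Car2 was high on array 2 (9.57, against 9.21 to 9.27), and Krt9 was low on array 1 (9.10, against 11.05 to 11.21). Kcnn1 was high on array 1 (6.76, against 6.41 to 6.42). In the other three the remaining arrays held the same value: Chrm2 was 5.01 on array 3 against 4.98, Foxc2 5.74 on array 1 against 5.65, and Klf1 4.97 on array 1 against 4.83.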

How the results depend on the processing

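Aqp5 kept its direction and its call under all 18 alternatives (log2 fold change -1.47 to -1.02, adjusted p = 0.000172 to 0.0486). Scgb1a1 kept its direction in all 18 and its call in 8. Under the replicate number as a block its adjusted p was 0.0573, and under array weights 0.0620. Of the 9, no other gene passed except Foxi1 and Cftr under reference gene scaling. The fit with the replicate block called 599 genes in all, 1 of the 9 sweat gland genes lower, and 2 of the other listed genes lower. No blastema array is numbered 4, so the fold changes of this fit rest on the arrays numbered 1 to 3. They equal those without uninjured array 4 (Aqp5 -1.02 in both). The labels do not say whether the numbers pair the arrays. Deviations from group means correlated at 0.286, 0.151 and -0.0651 for arrays numbered 1, 2 and 3. Between arrays of unlike number they correlated at -0.223 to 0.140. Whether arrays of the same number share a batch was not tested. With array weights 3016 genes were called in all (1570 higher, 1446 lower), against 2139 in the main fit. Of the 9 sweat gland genes 1 was lower, and of the others 13 were higher and 16 lower. With reference gene scaling 11751 genes were called (550 higher, 11201 lower, 4.68% higher in place of 51.7%), 4 of the 9 lower and 69 of the others lower. Of the 9 measured reference genes 3 rose: B2m (1.34), Gapdh (0.31) and Gusb (0.89). Omitting both arrays numbered 1 left 1 of the 9 lower. Omitting 1 array gave 845 to 2295 genes in all, 1 to 1 of the 9 lower, and 5 to 11 of the others lower and 5 to 11 higher.

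Of 1525 gene values under an alternative, 111 lost and 76 gained a call, and 39 had the other sign, 0 of them called by limma. Of these, 18 came from reference gene scaling, which moved every gene by -0.36 and so turned small positive values by construction: Foxa1 (-0.21), Kcnn4 (-0.11), Ano1 (-0.087), Chrm3 (-0.20), Gna11 (-0.099), Slc18a2 (-0.19), Aqp6 (-0.079), Aqp3 (-0.25), Kcnn3 (-0.34), Slc12a4 (-0.077), Slc12a8 (-0.29), Chrm5 (-0.28), Foxc1 (-0.27), Itga6 (-0.096), Rhag (-0.33), Cd3e (-0.21), Gapdh (-0.051) and Eda (-0.22). The other 21 came from other alternatives. With the replicate block they were Slc12a2 (0.13), Kcnn3 (-0.054) and Krt18 (0.083). These are the same values as without uninjured array 4, so they are not separate from that omission. Array weights turned Kcnn2 (0.00044) and En1 (0.13). Array median scaling turned Kcnn3 (-0.018) and Rhag (-0.0087), and quantile normalization Kcnn3 (-0.021). Without both arrays numbered 1 they were Kcnn2 (0.0096) and En1 (0.089). Omitting 1 array gave both signs for Slc12a2 (-0.45 to 0.13), Kcnn3 (-0.054 to 0.085), Krt18 (-0.25 to 0.083), Kcnn2 (-0.024 to 0.0096), Edar (-0.11 to 0.13), Klf1 (-0.17 to 0.10), En1 (-0.26 to 0.25), Chrm1 (-0.095 to 0.00063) and Rhag (-0.038 to 0.068). The causes were not tested. With genes under the background proxy left out, Acta2, Actg2, Ano9, Cdh1, Cidea, Edaradd, Ehf and Mgst1 gained a call (limma adjusted p = 0.0309 to 0.0494). Low signal limits Foxa1, Cftr and Chrm3.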
